A study of Mus musculus with 2 samples.

Results

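The receptors for acetylcholine, dopamine, serotonin and the adrenergic transmitters were examined in embryonic mouse midbrain at E12.5. Members were all protein-coding genes whose symbols name a nicotinic (Chrn) or muscarinic (Chrm) acetylcholine receptor, a dopamine receptor (Drd), a serotonin receptor (Htr) or an adrenergic receptor (Adra, Adrb). The rule took 49 of 43346 measured genes, of which 21474 were protein-coding. They comprised 16 nicotinic subunits, 5 muscarinic, 5 dopamine, 14 serotonin and 9 adrenergic receptors. The 2 libraries form 1 group of midbrain tissue of strain B6NCrl and mixed sex, healthy and untreated as far as the labels say. Replicate 1 came from a pool of 120 embryos and replicate 2 from a pool of 88. No condition was compared, so the results are levels within the tissue and differences between the 2 pools.

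Nicotinic receptors are cation channels built of several subunits that open when acetylcholine binds, and which subunits join decides their affinity and ion flow. The muscarinic, dopamine and adrenergic receptors and most serotonin receptors instead span the membrane as single chains and act through G proteins. Receptors coupled to Gs raise cyclic AMP, those coupled to Gi lower it, and those coupled to Gq act through phospholipase C. The midbrain is the home of dopamine neurons and of the oculomotor cholinergic neurons, and it lies next to the hindbrain nuclei that make serotonin and noradrenaline.

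Replicate 1 held 29430493 estimated counts and replicate 2 held 37381984, and spike-in RNAs took 4.14% and 3.48% of them. The midbrain and isthmus markers were detected in 11 of 12 cases, with Pax2 at 0.26 TPM (length-normalised abundance, in which the values of a library sum to a fixed total) in both libraries. The forebrain markers were detected in 10 of 10 cases, with a summed level of 289.7 TPM in replicate 1 and 193.7 in replicate 2. Of these 10 markers, 9 were lower and 1 was higher in replicate 2 at an adjusted p under 0.05 in an exact binomial test of the counts. Among all tested genes, 22.8% passed that threshold in either direction. Connective tissue, blood vessel and microglia markers were detected in 9 of 9, 10 of 10 and 10 of 10 cases, with summed levels of 1101.3 and 1558.5, 170.8 and 198.8, and 116.5 and 144.6 TPM. In bulk tissue, fewer cells of a type and less RNA per cell cannot be told apart.

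Few of the receptor genes were expressed, and the nicotinic subunits carried most of the signal. At 1 TPM or more in both libraries, called detected here, 12 of 49 members were found (24.5%), against 60.6% of all protein-coding genes. Detected members comprised 6 of 16 nicotinic subunits, 1 of 5 dopamine receptors, 5 of 9 adrenergic receptors and none of the 5 muscarinic or 14 serotonin receptors. Another 36 members were under 1 TPM in both libraries, 6 of them at 0 counts, and Chrnb4 lay on the threshold. The median member was at 0.29 TPM in replicate 1 and 0.34 in replicate 2, beside 4.77 and 5.08 TPM over all protein-coding genes. Receptor subunits for glutamate, GABA and glycine, the fast transmitters, were detected in 28 of 42 cases, with medians of 2.13 and 1.86 TPM.

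**Figure D1:**
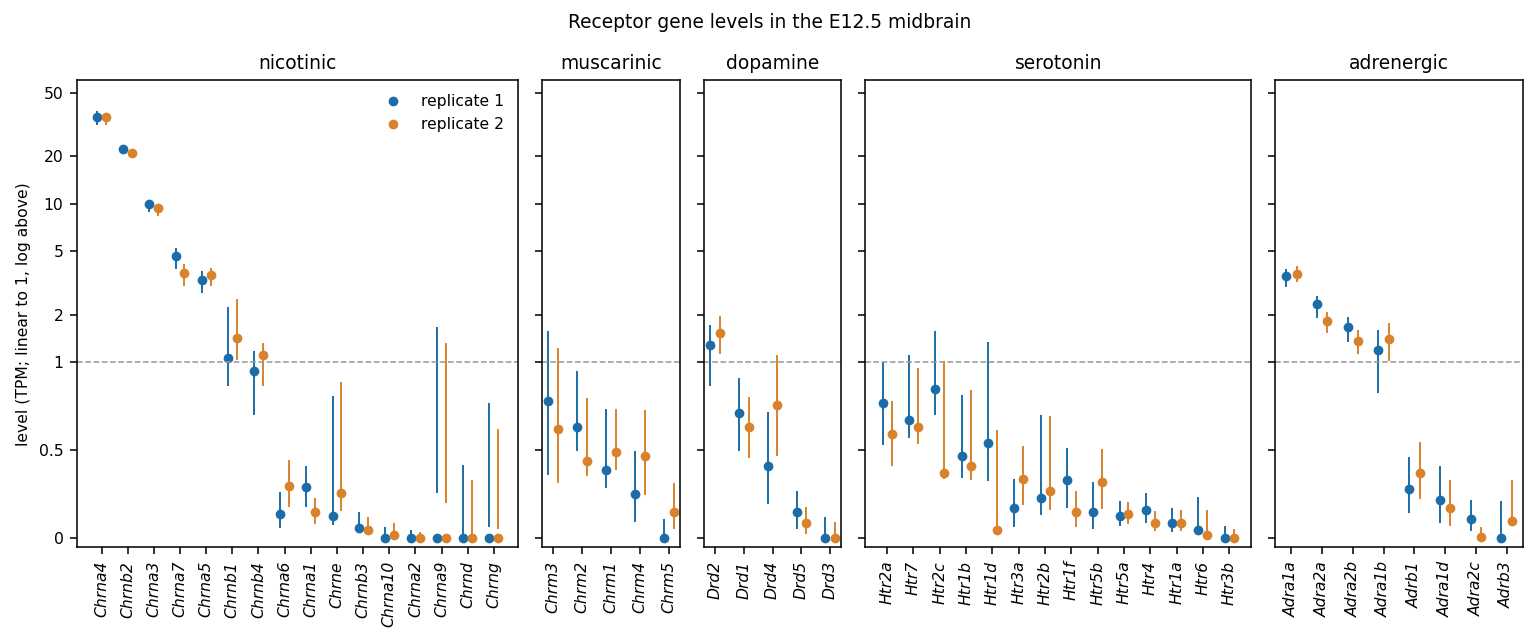
Levels of the receptor genes in TPM, by family and ordered by mean, on an axis that is linear to 1 TPM and logarithmic above. Points are the 2 libraries, vertical lines the deposited intervals and the dashed line 1 TPM. Chrna4 and Chrnb2 sit highest in both libraries, and no point of a muscarinic or serotonin receptor reaches the line, though some intervals cross it.

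The 49 members summed to 98.5 TPM in replicate 1 and 96.2 in replicate 2. Nicotinic subunits made up 78.9% and 78.8% of that sum, adrenergic receptors 11.7% and 12.3%, serotonin receptors 4.68% and 3.61%, dopamine receptors 2.59% and 3.14%, and muscarinic receptors 2.08% and 2.26%. By signalling class, channels held 79.1 ± 0.0124% (SD, n = 2), since the 2 serotonin-gated channel genes added little. Receptors coupled to Gi held 8.20 ± 0.451%, to Gq 8.02 ± 0.0761% and to Gs 4.69 ± 0.515%. The Gi and Gq shares did not differ beyond their spread over the pools. Over coding transcripts alone they did, at 9.71 ± 0.316% for Gi and 7.38 ± 0.272% for Gq. Within the classes, Chrna4 gave 45.5% of the channel sum, Adra2a 26.0% of the Gi sum and Adra1a 45.6% of the Gq sum.

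**Figure D2:**
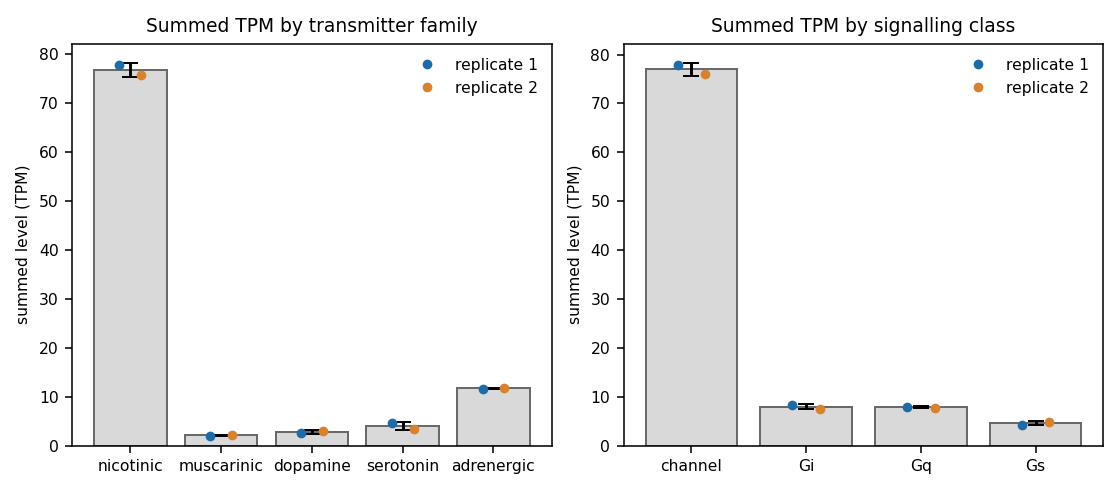
Summed level in TPM of the members of each transmitter family (left) and signalling class (right). Bars are means over the 2 libraries, error bars their SD and points the libraries. The nicotinic bar is at 76.7 TPM and the adrenergic bar, the next highest, at 11.7 TPM.

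Chrna4 and Chrnb2 were the leading nicotinic genes. Their products join to form the main high-affinity nicotine receptor of the adult brain. Chrna4 (chr2:181018380-181043546, minus strand, mm10) was at 35.06 TPM in replicate 1 and 34.95 in replicate 2, from 1866 and 2405 counts. Chrnb2 (chr3:89746195-89764632, minus strand, mm10) was at 22.10 TPM and 20.96 TPM, from 2069 and 2481 counts. The levels of these genes did not overlap, and Chrna4 stood 1.63 ± 0.0573 times as high as Chrnb2 (SD, n = 2). Of the exonic bases of Chrnb2, 1014 of 6399 (15.9%) lie opposite exons of Adar, an RNA-editing enzyme gene at 20.60 and 20.29 TPM. Whether reads were counted by strand is not stated, so part of either level is uncertain.

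The excess of Chrna4 over Chrnb2 rested on a short transcript. Its full-length coding transcript was at 21.76 TPM (deposited interval 19.7 to 22 TPM) in replicate 1 and 22.30 TPM (20.7 to 22.6 TPM) in replicate 2, close to the level of Chrnb2. A short transcript, which the annotation classes as processed and without a coding sequence, was at 13.31 TPM (9.03 to 16.3 TPM) and 12.64 TPM (8.81 to 15.3 TPM). It is 712 bases long against 4565 for the coding one. It took 7.48 ± 0.372% of the gene's estimated counts but, per length, 37.1 ± 1.25% of its TPM (SD, n = 2). Over coding transcripts alone the Chrna4 to Chrnb2 ratio was 0.985 in replicate 1 and 1.06 in replicate 2, on both sides of equality. The 2 other coding transcripts of Chrna4 were estimated at 0 in both libraries.

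The sequences around the end of the fourth exon show how the 2 Chrna4 transcripts differ, since they share its start and use different splice donors. In the coding transcript the exon spans chr2:181033920-181034029 and has 110 bases, and in the short one it spans chr2:181033897-181034029 and has 133. Each is given 5′ to 3′ on the transcript strand with 45 bases of exon on either side, from mm10, and capitals mark the 23 bases found only in the short transcript.
Chrna4 coding transcript: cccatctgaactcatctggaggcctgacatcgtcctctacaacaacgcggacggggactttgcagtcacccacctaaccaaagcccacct
Chrna4 short transcript: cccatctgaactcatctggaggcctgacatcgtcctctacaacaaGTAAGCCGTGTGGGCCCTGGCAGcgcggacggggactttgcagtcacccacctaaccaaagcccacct
Read from the start codon of the coding transcript, the frame of the short one meets a stop, TAA, that begins at base 2 of the extra 23. That leaves 130 codons before the stop, against 629 in the coding transcript. The extra bases begin with GT, the usual first letters of an intron. How many reads covered these 23 bases is not given by the per-transcript estimates, and the share assigned to the short transcript was not tested.

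**Figure D3:**
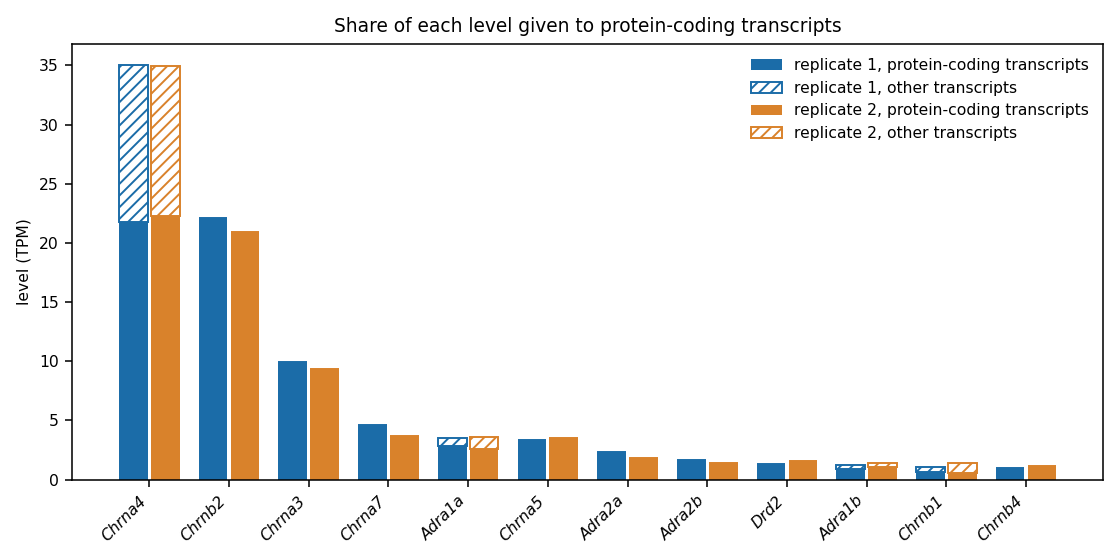
Level in TPM of members with a mean of at least 1 TPM, in replicate 1 (blue) and replicate 2 (orange). Solid bars are protein-coding transcripts and hatched bars all other annotated transcripts of the gene. Solid bars of Chrna4 and Chrnb2 are of similar height, and Chrna4 has the tallest hatched part.

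Chrna3, Chrna5 and Chrnb4 lie side by side on chromosome 9 and encode subunits of the receptor of autonomic ganglia and of the habenula. They were expressed at unequal levels. Chrna3, a ligand-binding subunit, was at 9.97 TPM in replicate 1 and 9.33 in replicate 2. Chrna5, an accessory subunit, was at 3.32 and 3.54 TPM, and Chrna3 stood 2.82 ± 0.260 times as high (SD, n = 2). Chrnb4, the usual partner of Chrna3, was at 0.95 and 1.11 TPM, and Chrna3 stood 9.45 ± 1.48 times as high. The ranges of these 3 genes did not overlap. Chrna5 and Chrna3 are transcribed towards each other, with 2331 bases between their 3′ ends, and 1591 bases separate Chrna3 from Chrnb4 on the same strand. Markers of peripheral sensory and sympathetic neurons, which also use these subunits, were detected in 4 of 6 cases, summing to 50.5 TPM in replicate 1 and 65.2 in replicate 2. The highest was Sncg at 41.00 and 52.35 TPM and none was at 0, and their part in the levels was not tested.

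Chrna7 forms channels of a single kind of subunit with high calcium flow. It was at 4.65 TPM in replicate 1 and 3.65 in replicate 2, from 164 and 163 counts. In the order of levels, Chrna4, Chrnb2, Chrna3 and Chrna7 were each apart from the next, by the range over the pools and by the deposited intervals in both libraries, in TPM over all transcripts. The step from Chrna4 to Chrnb2 did not hold over coding transcripts, as given above, and by CPM, which is not per length, the ratio was 0.936. Chrna7 and Chrna5 were not separated, since their intervals overlapped. Below them Chrna5 stood apart from Chrnb1 and Chrnb4 from Chrna6, while Chrnb1 and Chrnb4 overlapped. The partner genes of dopamine neuron nicotinic receptors in the adult, Chrna6 and Chrnb3, were near 0 here. Chrna6 was at 0.14 and 0.30 TPM and Chrnb3 at 0.06 and 0.05 TPM. They neighbour each other on chromosome 8 with 3481 bases between them. Chrna10 was at 0.00 and 0.02 TPM. Chrna2 had 0 counts in both libraries, with deposited upper bounds of 0.0473 and 0.0379 TPM. Chrna9 also had 0 counts, but its bounds of 1.68 and 1.32 TPM leave its absence less certain.

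Subunits of the muscle receptor were low apart from Chrnb1, its beta subunit, at 1.06 TPM in replicate 1 and 1.43 in replicate 2. Over coding transcripts Chrnb1 was at 0.67 and 0.55 TPM, since 2 retained-intron transcripts took the rest. Chrna1, the ligand-binding subunit, was at 0.29 and 0.15 TPM, and Chrne, the adult subunit, at 0.13 and 0.26 TPM. Chrnd and the fetal subunit Chrng, neighbours on chromosome 1, had 0 counts in both libraries. Muscle markers were detected in 2 of 14 cases, summing to 16.98 TPM in replicate 1 and 16.83 in replicate 2. Mylpf, a fast muscle myosin light chain, was at 8.40 and 7.07 TPM, and Actc1, the cardiac actin, at 3.49 and 3.80 TPM. Of the factors that define muscle cells, Myod1 was at 0.03 and 0.05 TPM and Myf6 was at 0 in both libraries. Their part in the muscle subunit levels was not tested.

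The muscarinic receptors were all under 1 TPM. Chrm3, coupled to Gq, was the highest at 0.78 TPM in replicate 1 and 0.62 in replicate 2. Over its coding transcripts Chrm3 was at 0.26 and 0.21 TPM. Chrm2, a Gi-coupled receptor, followed at 0.63 and 0.44 TPM, from 62 and 55 counts. Chrm1, Chrm4 and Chrm5 had means of 0.075 to 0.44 TPM, and Chrm5 had counts in replicate 2 only, 5 of them. No neighbours in this order were separated.

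Among dopamine receptors only Drd2, a Gi-coupled receptor that also serves as the autoreceptor of dopamine neurons, was detected. It was at 1.28 TPM (deposited interval 0.868 to 1.71 TPM) in replicate 1 and 1.54 TPM (1.12 to 1.95 TPM) in replicate 2, from 33 and 50 counts. Drd1, the main Gs-coupled receptor, was at 0.71 and 0.63 TPM. Drd4 was at 0.41 and 0.76 TPM and overlapped Drd1. Drd5 was at 0.15 and 0.09 TPM, and 1531 of its 3152 exonic bases lie opposite an antisense gene that was itself at 0.00 and 0.03 TPM. Drd3 had 0 counts in both libraries, with upper bounds of 0.121 and 0.0953 TPM. None of the neighbours in this order was separated by both its range and its intervals.

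The 14 serotonin receptors were all under 1 TPM, and their sum was 4.61 TPM in replicate 1 and 3.47 in replicate 2. The highest by mean was Htr2a, coupled to Gq, at 0.77 and 0.59 TPM. Htr7, coupled to Gs, was at 0.67 and 0.63 TPM, but in replicate 2 all of its level went to transcripts not classed as protein-coding. Htr2c, coupled to Gq, was at 0.85 and 0.37 TPM. The Gi-coupled Htr1b, a receptor of axon terminals, was at 0.47 and 0.41 TPM. That level is uncertain, since 852 of its 4724 exonic bases (18.0%) lie opposite the antisense gene D430036J16Rik at 0.50 and 0.95 TPM. Htr1d, a relative of Htr1b, was at 0.54 and 0.05 TPM, with deposited intervals that overlapped (0.327 to 1.35 and 0.0459 to 0.615 TPM). The other members had means of at most 0.255 TPM. Among them were the channel subunit Htr3a at 0.17 and 0.34 TPM, Htr2b at 0.23 and 0.27 TPM, and Htr1a, the autoreceptor of serotonin neurons, at 0.09 TPM in both. Htr1f, Htr5b, Htr5a, Htr4 and Htr6 lay between 0.035 and 0.24 TPM in mean, and the channel subunit Htr3b had 0 counts. Of the exonic bases of Htr2b, 252 lie opposite exons of the proteasome gene Psmd1, at 166.5 and 160.6 TPM, so its level is uncertain. Each serotonin receptor overlapped the next in the order in its deposited intervals, but Htr2a and Htr7 stood apart from Htr4 and Htr1a in both libraries.

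The adrenergic family had 5 of its 9 members at 1 TPM or more. Adra1a, coupled to Gq, was the highest at 3.51 TPM in replicate 1 and 3.60 in replicate 2, from 239 and 315 counts. A retained-intron transcript took 16.8% and 26.1% of the Adra1a counts, and over coding transcripts the gene was at 2.87 and 2.55 TPM. Adra1b, of the same class, was at 1.20 and 1.40 TPM, or 0.93 and 1.03 TPM over coding transcripts. Of its 4 transcripts, 2 have the same 3047 bases, so the counts were divided evenly between a non-coding and a coding label. Their split therefore carries no information.

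The Gi-coupled Adra2a, the autoreceptor of noradrenaline neurons, was at 2.32 TPM in replicate 1 and 1.83 in replicate 2. Adra2b was at 1.68 and 1.37 TPM, so that Adra2a stood 1.36 ± 0.0320 times as high (SD, n = 2) although their intervals overlapped. The shorter of its 2 transcripts took 57.8% of the gene's TPM in replicate 1 and none in replicate 2. It lies wholly within the longer, which adds 78 bases, so the split between them is uncertain.

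Adrb1, a Gs-coupled beta receptor of heart and brain, was at 0.28 TPM in replicate 1 and 0.37 in replicate 2. Adra1d, Adra2c and Adrb3 had means of 0.05 to 0.195 TPM, and Adrb3 had 0 counts in replicate 1 and 6 in replicate 2. In this family the step from Adra1b down to Adrb1 was the only one where both the ranges and the intervals were apart.

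No expressed receptor gene was called different between the pools. In an exact two-sided binomial test, which sets these 2 libraries against each other and not conditions, a call needed an adjusted p under 0.05, a 1.5-fold difference and a mean TPM of 1 or more. None of the 13 members with a mean of at least 1 TPM was called, where 3.55% of all such genes were. At that share few or no calls would fall among 13 genes, so the absence of calls does not set the receptors apart. Some of the 13 also rest on few counts, such as Chrnb1 with 28 and 35. At unadjusted p under 0.05 and any level, 7 of 37 tested members passed, against 32.3% of all tested genes. They were Chrnb2, Chrna7, Chrna1, Chrm2, Htr2c, Htr1d and Adra2a, each lower in replicate 2. By an edgeR negative binomial exact test, which allows for spread beyond counting, 2 of 37 passed at unadjusted p, against 6.98% of all tested genes. After adjustment 1 passed, against 1.40%. That spread was 1 common value for all genes, estimated from the same 2 libraries taken as replicates. It therefore includes the differences tested, and no replicates within a pool stand behind these p-values. The deposited TPM intervals were apart for none of the 13, against 15.8% of genes at that level. The replicate 2 to replicate 1 ratio of Chrna4 was 0.998 with a 95% exact interval of 0.939 to 1.06. That of Drd2 was 1.17 (0.741 to 1.88), wide enough to hold a 1.5-fold difference in one direction.

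**Figure D4:**
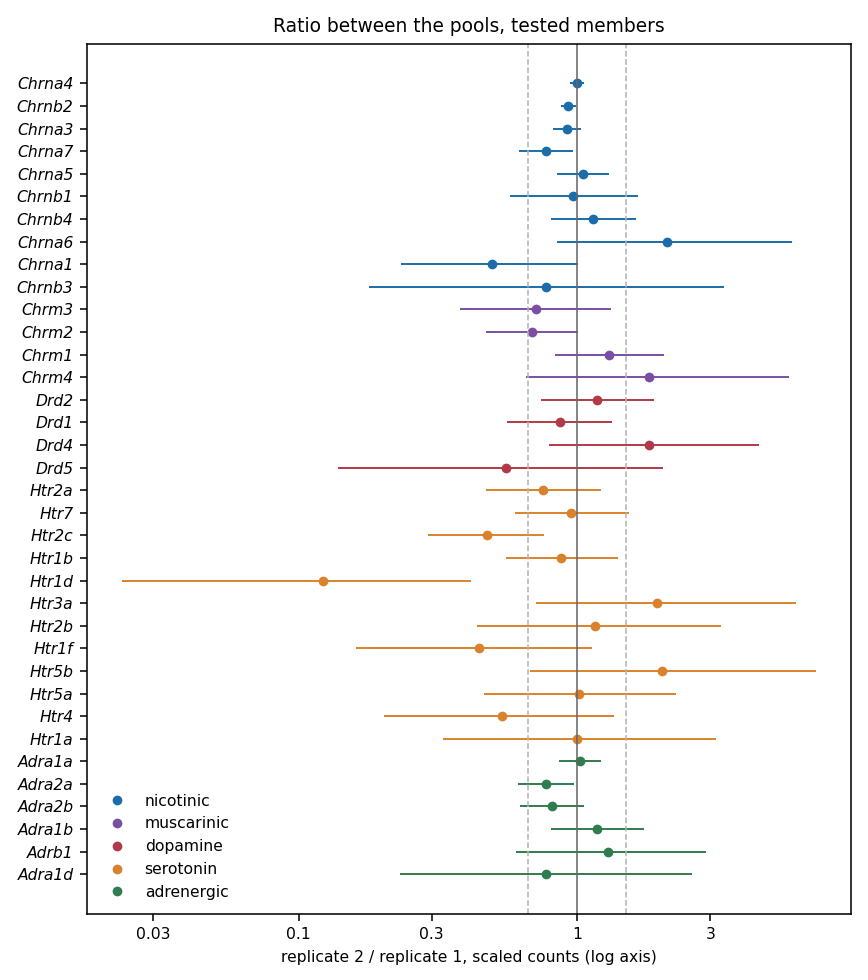
Replicate 2 to replicate 1 ratio of scaled counts for members with at least 10 counts, on a log axis, coloured by family. Points are ratios, horizontal lines 95% exact binomial intervals that cover counting error only, and dashed lines a 1.5-fold difference. The intervals of Htr1d, Htr2c, Chrnb2, Chrna7 and Adra2a lie wholly below 1, and Chrna4 sits at 0.998.

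At an adjusted p under 0.05 with no minimum fold or level, 2 of 37 tested members passed, against 22.8% of all tested genes. Htr1d went from 19 counts to 3, a level 8.18-fold lower in replicate 2 (95% exact interval 2.41 to 43.2) at an adjusted p of 0.000502 in the exact binomial test. Its adjusted p was 0.0144 by the edgeR negative binomial test, while the posterior mean levels of 0.77 and 0.27 TPM were closer together. Htr2c had 49 and 30 counts and was 2.11-fold lower in replicate 2 (1.31 to 3.44), at an adjusted p of 0.00884. By the edgeR negative binomial test its adjusted p was 0.236. Both genes stayed under 1 TPM in both libraries. Htr2c is best known from the choroid plexus, the tissue that makes cerebrospinal fluid. Of 5 choroid plexus markers, chosen after the values were seen, 2 were called lower and 1 higher in replicate 2. Among all tested genes with a mean of at least 1 TPM, 3.55% were called in either direction. The sum of the 5 markers was 50.6 and 30.9 TPM. Ttr, the transthyretin gene, was at 38.70 and 13.79 TPM, the largest part of that sum, and Kcne2 at 2.16 and 0.32 TPM. Aqp1 was at 4.00 and 6.52 TPM, Folr1 at 5.39 and 9.76 TPM and Kl at 0.37 and 0.52 TPM. These last levels were each higher in replicate 2, though Folr1 and Kl were not called. The fall of the sum was thus that of Ttr and Kcne2 only. None of the 5 markers was at 0. Forebrain markers moved the same way as both receptors in 9 of 10 cases, but falls were not limited to that list. By the 0.05 threshold on adjusted p alone, neuron markers were lower in replicate 2 in 7 of 8 cases and higher in 0. Progenitor markers were lower in 4 of 7 cases and higher in 1. Of the 42 glutamate, GABA and glycine receptor subunits, 10 were lower and 2 higher. Connective tissue markers were higher in 7 of 9 cases and lower in 0. The part of any of these tissues or cell types in the receptor levels was not tested.

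The genes that make, move and break down the transmitters ranged from near 0 to above 20 TPM. Of the catecholamine genes 7 of 11 were detected (63.6%, near the 60.6% of all protein-coding genes), and of the acetylcholine genes 2 of 5, a difference that was not tested. Th, the first enzyme of dopamine synthesis, was at 13.08 TPM in replicate 1 and 23.51 in replicate 2, 1.76-fold higher at an adjusted p of 3.03e-20 in the exact binomial test. Gch1, which makes the cofactor of Th, was at 2.49 and 4.12 TPM and 1.62-fold higher (adjusted p of 0.000137, same test). Ddc, the second synthetic enzyme, was at 15.13 and 21.68 TPM and the vesicle transporter Slc18a2 at 11.49 and 15.19 TPM. Neither reached 1.5-fold, though the adjusted p was 3.71e-05 for Ddc and 4.14e-07 for Slc18a2. Markers of dopamine neurons and their precursors were higher in replicate 2 at an adjusted p under 0.05 in 8 of 10 cases, while Drd2, given above, was not called. Among all tested genes, 22.8% passed that threshold in either direction. Whether the ratios of Th and Drd2 differ from each other was not tested.

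Of the acetylcholine genes, Ache, the esterase, was at 4.00 TPM in replicate 1 and 4.34 in replicate 2, and Bche at 2.69 and 2.62 TPM. The choline transporter gene Slc5a7 was at 0.96 and 1.53 TPM and was called 1.57-fold higher in replicate 2 (adjusted p of 0.00425, exact binomial test). The vesicle transporter gene Slc18a3 was at 0.59 and 1.22 TPM, 2.03-fold higher (adjusted p of 0.0141) but with a mean under 1 TPM. Some defining genes were near 0 and are named after their values were seen. Chat, which makes acetylcholine, was at 0.06 and 0.02 TPM, Tph2, which starts serotonin synthesis, at 0.36 and 0.39 TPM, and Dbh, which makes noradrenaline, at 0.07 and 0.13 TPM. In the serotonin list 4 of 7 genes were detected, Ddc, Slc18a2, Maoa and Maob, all of them shared with the catecholamine list. Maoa was at 9.49 and 10.00 TPM and Maob at 2.05 and 2.28 TPM.

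Genes that assemble nicotinic receptors were detected in 6 of 11 cases. Agrn, the agrin gene that clusters receptors at the muscle synapse, was the highest at 128.83 TPM in replicate 1 and 127.58 in replicate 2. The chaperones Tmem35a and Ric3, which help neuronal subunits fold and join, were at 36.80 and 33.38 TPM and at 24.31 and 24.20 TPM. Lypd1, a membrane-bound modulator of nicotinic receptors, was at 10.26 and 11.98 TPM. Its relative Lynx1 was at 0.64 and 1.52 TPM and was called 1.75-fold higher in replicate 2 (adjusted p of 0.0176, exact binomial test).

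Downstream of the G-protein-coupled receptors, signalling genes were detected in most cases. Of 13 G alpha genes, 11 were detected, led by Gnas of the Gs class at 1144.70 TPM in replicate 1 and 1165.61 in replicate 2. The Gi-class genes followed, with Gnai2 at 510.31 and 527.70 TPM, Gnai3 at 151.99 and 164.26 TPM and Gnao1 at 67.61 and 63.57 TPM. These proteins serve many other receptors too. All 9 adenylyl cyclases, the enzymes that make cyclic AMP, were detected, led by Adcy6 at 8.23 and 9.03 TPM, Adcy3 at 5.81 and 5.63 TPM and Adcy4 at 4.24 and 5.58 TPM. Adcy8, a calcium-stimulated form, was at 4.15 and 2.14 TPM and was called 1.99-fold lower in replicate 2 (adjusted p of 4.97e-15, exact binomial test). Of 4 phospholipase C beta genes, 3 were detected, Plcb4 at 21.05 and 22.71 TPM, Plcb3 at 14.68 and 14.44 TPM and Plcb1 at 8.97 and 8.31 TPM, and Plcb2 was at 0.13 and 0.41 TPM. All 7 receptor kinase and arrestin genes, which switch receptors off, were detected, led by Grk6 at 40.25 and 45.41 TPM, Arrb2 at 29.87 and 34.01 TPM, Grk2 at 14.22 and 13.99 TPM and Arrb1 at 11.32 and 11.04 TPM. Over all 63 genes of the pathway lists, 45 were detected (71.4%, against 60.6% of all protein-coding genes). In these lists 4 genes were called higher and 1 lower in replicate 2. Among all tested genes with a mean of at least 1 TPM, 3.55% were called. These differences from all genes were not tested. Only Th and Adcy8 were also called by the edgeR negative binomial test, where the adjusted p was 0.217 for Gch1, 0.441 for Slc5a7 and 0.448 for Lynx1. The limit of that test, with its spread taken from the same 2 libraries, is given above.

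Promoter letters were described for the detected and the other members, with no test. RefSeq promoters (GRCm38.p6) were found for 37 members, 10 of them detected, and the 250 bases before the start were read. The motif GGGCGG, or CCGCCC on the other strand, which Sp1-type factors can bind, lay in the windows of 9 of 10 detected and 10 of 27 other members. In all protein-coding genes with a promoter of this length, 47.9% of 16317 held it. Taking the richest window of each gene, the median GC content was 66.6% in the detected, 55.6% in the other members and 57.2% in all protein-coding genes. TATAAA, on either strand, was in 2 of 10, 0 of 27 and 13.1%. A match is a description of letters only, and no factor binding was measured. The promoters of Chrna3 and Chrnb2 are given as examples with and without the motif, which the Chrna4 window (74.4% GC, not shown) holds 3 times, 5′ to 3′ on the gene's strand, with the motif in capitals. That of Chrna3 spans chr9:55026563-55026812 and that of Chrnb2 chr3:89764633-89764882, both on the minus strand.
Chrna3: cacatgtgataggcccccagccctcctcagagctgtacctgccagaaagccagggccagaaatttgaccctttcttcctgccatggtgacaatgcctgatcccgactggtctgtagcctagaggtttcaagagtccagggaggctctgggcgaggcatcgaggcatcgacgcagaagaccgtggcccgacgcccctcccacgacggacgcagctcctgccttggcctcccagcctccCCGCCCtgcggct
Chrnb2: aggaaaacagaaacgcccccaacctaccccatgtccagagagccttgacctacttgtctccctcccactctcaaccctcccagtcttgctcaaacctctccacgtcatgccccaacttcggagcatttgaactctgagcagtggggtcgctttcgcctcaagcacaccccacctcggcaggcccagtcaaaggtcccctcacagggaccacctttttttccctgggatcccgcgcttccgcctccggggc
The Chrna3 window holds the motif once, close to its end, with 63.2% GC, and the Chrnb2 window, with 59.6% GC, does not hold it.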

How the data were processed

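Per the labels, mirVana extraction gave RNA over 200 nt, of which 10 ng went into each library, and a SMARTer Ultra Low kit manual is linked. Strandedness, aligner and quantifier were not given in the sources used here. Expected counts, deposited for genes and transcripts, are estimates that need not be whole. TPM values, with their intervals, were normalised by the authors for effective length and library. The deposited isoform percent is each transcript's share of its gene's TPM. The annotation was GENCODE M4 on mm10, per a deposited note. GENCODE M21 on that build supplied names, coordinates and transcript classes, and 42462 of 43346 identifiers matched. Separate embryo pools make the libraries biological replicates, per the labels.

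Expected counts were rounded and scaled by TMM (edgeR 4.0.16, R 4.3.3). Spike-ins and 26248 numbered short features were left out. Each gene with at least 10 summed counts had an exact binomial test with Benjamini-Hochberg adjustment over all tested genes. Neighbouring levels were called separated where the ranges over the libraries and the deposited intervals in both did not overlap. Intervals of ratios are 95% exact and cover counting error only. Of these steps, only the binomial test was tried on simulated counts, which had no spread beyond counting error. Changes of 2-fold and 4-fold were set in genes with 200 or more counts, and 100% were recovered. The lower counts of most members were not covered. Alternatives used DESeq2 1.42.0 size factors, other thresholds, the posterior mean, rescaling over nuclear protein-coding genes, CPM, coding transcripts only, an edgeR negative binomial test and each library alone. Python 3.11.15, numpy 2.4.6, pandas 2.3.3, scipy 1.17.1 and matplotlib 3.10.9 were used.

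The members and gene lists were chosen with earlier results of these data known. Values are given for members with a mean of at least 1 TPM, the highest of each family, the 4 highest pathway genes of each list and those called, and isoforms of members at a mean of at least 2 TPM with more than 1 transcript. Other values, among them the isoforms of Chrnb1, Adra1b and Adra2b, were chosen after the values were seen. The marker gene Drgx was not analysed here. Some of these genes are left unnamed and unplotted here, though counts, sums and medians include them.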

Additional observations from a re-analysis of the deposited data

How the results depend on the processing

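At 2 TPM in place of 1, 7 members were detected, and over coding transcripts only 10, while the other thresholds and scales gave 12 to 17. The number was 12 or 13 with either library alone. Over coding transcripts Chrnb1 and Adra1b fell out, Adra1b at 0.93 TPM in replicate 1. That Adra1b value rests on the even split between 2 identical transcripts, which carries no information. The median member moved from 0.315 TPM to 0.445 by the posterior mean and to 0.398 after rescaling over nuclear protein-coding genes, and was 0.29 and 0.34 in the single libraries. The channel share was 78.0% by the posterior mean, 81.7% by CPM, which is not per length, and 77.7% over coding transcripts. The Gi share was 7.39% by CPM and 9.71% over coding transcripts. The Gq share was 8.53% by the posterior mean, 7.49% by CPM and 7.38% over coding transcripts, and the Gs share 3.40% by CPM and 5.22% over coding transcripts. Over coding transcripts the Gi and Gq shares were apart, though that Gq share includes the uninformative Adra1b split. By CPM the Gi and Gq shares were close, and with no spread computed their order is uncertain. In each of these settings channels remained far above the other classes. Chrna4 over Chrnb2 fell from 1.63 to 0.936 by CPM and 1.02 over coding transcripts. With no minimum level, 2 members, Htr1d and Htr2c, were called between the pools, and no other alternative called a member. Of the pathway genes 5 were called, against 2 (Th and Adcy8) by the edgeR negative binomial test. In the binomial test 0 were called at 2-fold and 19 with no minimum fold, and the share of all genes called at these settings was not computed. Deposited intervals were apart for 15 of the 63 pathway genes, counting only genes with a mean of at least 1 TPM. Of the 63, 45 were at 1 TPM or more in both libraries. Among all genes with a mean of at least 1 TPM, 15.8% had intervals apart, and the difference was not tested. At an unadjusted p under 0.05, 30 of 61 tested pathway genes passed, against 32.3% of all tested genes. At an adjusted p under 0.05 and any fold and level, 21 of 61 passed, against 22.8%. No paired analysis was possible because the libraries form 1 group, and leaving out a library leaves no test between the pools. The coding-transcript and interval alternatives were chosen after seeing the data. The 36 members under 1 TPM in both libraries rest on at most 62 counts in a library, so depth limits how precisely their levels are known. Some still had deposited intervals wholly under 1 TPM, such as Chrm2, with upper bounds of 0.95 TPM in replicate 1 and 0.795 in replicate 2. Those of Drd1 were 0.909 and 0.801 TPM.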
